A study of Mus musculus with 2 samples.

Results

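Kidney injury biomarker genes encode proteins that are measured in urine, blood or tissue to detect damage to the kidney tubule. The 10 genes followed here are *Havcr1*, *Lcn2*, *Spp1*, *Clu*, *Cst3*, *Vcam1*, *Cd44*, *Tff3*, *Fabp1* and *Chil1*, and were matched by symbol. Of these, 8 had a row among the 19829 genes of the table. *Tff3* and *Chil1* had none by symbol or gene ID and are not analysed here. All 8 reached a normalized value of 1 or more in either library, the filter used here.

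RNA came from kidneys of male C57BL/6 mice, with 1 library per group. The WT+AKI library is the I/R+WT+Voc group, made of wild-type littermates, and the TG+AKI library is the I/R+Tg+Voc group, made of mice with extra *Inmt*, the gene of indolethylamine N-methyltransferase, in the proximal tubule. The promoter that drives the transgene is not given in the sources used here. Mice of both genotypes had received voclosporin, a calcineurin inhibitor, at 30 mg/kg daily for 2 weeks from 8 weeks of age, and then bilateral ischemia–reperfusion (I/R) with 30 min of ischemia at 14 weeks. The sources give both 24 h and 48 h between I/R and tissue collection, the tissue is named both as a left kidney and as kidneys, the sample labels state that no treatment was given, and the title of the transgenic sample also calls the mouse a conditional knockout. How many animals each library pooled is not given in the sources used here. No uninjured kidney was analysed here, so a value cannot be placed against a healthy level.

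The libraries held 38542764 recovered reads (WT+AKI) and 36427421 (TG+AKI), and 1 read was worth a normalized value of 0.0236 and 0.0302. The lowest count of any gene was 1 read in either library. A gene that went unread in 1 library therefore appears to have no row, even if the other library held many reads. Ranks and shares of genes leave out any such gene. A missing row does not show that a gene was silent in both libraries. With 1 library per group, no difference has a replicate check and no test between genotypes was possible. Brackets hold 95% exact (Clopper-Pearson) intervals of a ratio, or exact Poisson intervals of a level. These cover counting error only, since 1 library per group gives no spread between mice or libraries. They may be too narrow even for counting error, since PCR reads without molecular identifiers are not independent molecules. WT+AKI gave 10.4 for *Inmt* (443 reads) against 402.8 for TG+AKI (13339 reads), which follows the transgenic label. Transgene and endogenous *Inmt* cannot be told apart in these values. The study reported less INMT staining in wild-type kidneys after I/R under voclosporin. Kidney was recognisable in both libraries from *Kap*, an androgen-regulated proximal tubule transcript (3958 and 17611), and *Umod*, the thick ascending limb protein uromodulin (1427 and 1921).

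Injured proximal tubule cells lose transporters, spread over the bare basement membrane and switch on genes that are nearly silent in a healthy nephron. *Havcr1* is the best known of these. *Lcn2* is a further well-known marker of tubular injury, and the proteins of both reach the urine. Other markers report a different process: cystatin C, the product of *Cst3*, is made by nearly all nucleated cells and marks filtration, while the fatty acid binding protein of *Fabp1* is a urinary marker in patients although mouse kidney is known to make little of it. In whole-kidney RNA, fewer cells of a type and less RNA per cell cannot be told apart.

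All 8 genes had a lower normalized value in TG+AKI than in WT+AKI, where 51.3% of the 14997 genes compared were lower and 48.7% higher at any size. *Havcr1*, *Lcn2*, *Cd44*, *Spp1*, *Clu* and *Vcam1* were at least 2-fold lower on the log2(value + 1) scale, 6 of the 8, against 7.67% of all genes compared. None of the 8 was at least 2-fold higher, against 5.23% of all genes. The median log2 fold change was -3.43 over the 8 genes and -0.02 over all genes compared. The study followed *Havcr1* and *Lcn2* in this same comparison, so their direction here is not independent evidence. All 8 genes were also chosen with earlier results of these data known. The counts and the median above are therefore descriptions, not independent evidence. Where 2 values stand together without library names, the first is WT+AKI and the second TG+AKI.

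**Figure D1:**
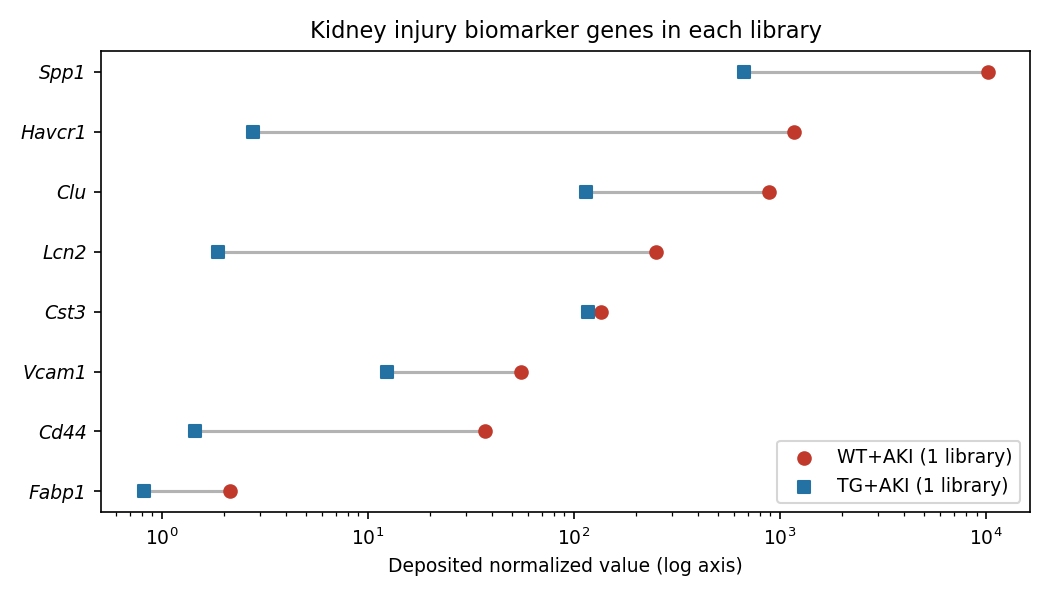
Deposited normalized value of each of the 8 genes (log axis) in the WT+AKI library (circles) and the TG+AKI library (squares), with 1 library per group and no error bars. Every square lies left of its circle. The gap is widest for *Havcr1* (1169 and 2.78) and narrowest for *Cst3* (135.8 and 116.4).

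The sequences before a start of 4 of these genes are printed to set the markers with the steepest differences, both followed by the study (*Havcr1* and *Lcn2*), the most abundant transcript (*Spp1*) and the gene that differed least (*Cst3*) side by side. Each is the 250 bases before the first start given for the gene in a table of RefSeq promoters (GRCm38.p6), 5′ to 3′ in the direction of the gene. For *Havcr1* that stretch lies inside the RefSeq gene, which begins at 46739822, and so is not upstream of the whole gene. The *Lcn2* and *Cst3* stretches precede their RefSeq genes. Against the longer GENCODE genes given below, the *Lcn2* stretch lies inside and the *Cst3* stretch overlaps in part. Capitals mark letters of any of 10 motifs, searched on both strands. The letters were TGANTCA for the stress factor AP-1 and TGACGTCA for the cyclic AMP response element (CRE). They were TTCNNNGAA for the cytokine-driven STAT factors and TTGCNNAA for the C/EBP factors. Those of NFAT, the factor that calcineurin activates, were TGGAAA, and those of the RUNX factors were TGTGGT. The hypoxia factor HIF was searched as ACGTG and the core promoter element TATA box as TATAAA. The longer motifs of NF-kB and HNF1 were searched too.
*Havcr1*, chr11:46739973-46740222, plus strand: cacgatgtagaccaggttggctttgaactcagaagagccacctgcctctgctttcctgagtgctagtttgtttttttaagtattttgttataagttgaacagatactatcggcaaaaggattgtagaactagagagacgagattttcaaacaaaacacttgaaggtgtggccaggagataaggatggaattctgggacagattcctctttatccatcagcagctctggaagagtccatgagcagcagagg
*Lcn2*, chr2:32387740-32387989, minus strand: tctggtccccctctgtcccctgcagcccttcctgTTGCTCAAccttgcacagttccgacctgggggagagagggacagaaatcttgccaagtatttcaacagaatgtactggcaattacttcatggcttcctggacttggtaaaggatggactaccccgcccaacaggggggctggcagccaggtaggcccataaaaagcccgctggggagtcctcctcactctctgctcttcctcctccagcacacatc
*Spp1*, chr5:104434861-104435110, plus strand: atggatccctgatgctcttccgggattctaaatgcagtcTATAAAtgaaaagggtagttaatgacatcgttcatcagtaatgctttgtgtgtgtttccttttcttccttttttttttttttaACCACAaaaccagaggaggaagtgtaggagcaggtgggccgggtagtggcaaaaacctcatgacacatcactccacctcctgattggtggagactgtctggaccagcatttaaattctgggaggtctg
*Cst3*, chr2:148875513-148875762, minus strand: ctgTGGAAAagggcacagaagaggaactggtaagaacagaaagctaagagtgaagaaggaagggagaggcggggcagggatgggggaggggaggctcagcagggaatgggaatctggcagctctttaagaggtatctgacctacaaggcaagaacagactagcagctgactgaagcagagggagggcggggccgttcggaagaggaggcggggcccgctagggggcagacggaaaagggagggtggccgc

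The *Havcr1* stretch held none of the 10 motifs. *Lcn2* held 1 C/EBP match, found in 9.56% of the 32851 RefSeq stretches of the same length. *Spp1* held 1 TATA match (12.4% of all), 211 bases before the start, and 1 RUNX match on the minus strand (14% of all). *Cst3* held 1 NFAT match (18.6% of all). The table gives 2 further starts for *Havcr1*, whose stretches held a HIF match each (16.6% of all) and, in the nearer one, a C/EBP match, and 1 further start for *Spp1*, with a C/EBP and an NFAT match. The stretch before *Fabp1* held a TATA match 30 bases before the start and a C/EBP match, and that before *Cd44* held a HIF match. No stretch of a listed member held the AP-1 (6.75% of all), STAT (7.02%), NF-kB (7.25%), CRE (1.55%) or HNF1 (0.00913%) letters. Such matches are descriptions of letters, not of binding. RefSeq sequences were matched for 6 of the 8 genes, without *Clu* and *Vcam1*.

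*Havcr1* encodes KIM-1, a receptor for phosphatidylserine by which injured tubule cells take up dying neighbours. It lies on chromosome 11 at 46735080-46779578 on the plus strand (GRCm38, GENCODE M21) and its longest transcript has 8 exons. The WT+AKI library gave 1169 (49554 reads) against 2.78 (92 reads) for TG+AKI. The wild-type kidney thus held nearly all of the signal, and the level in TG+AKI was 420.7-fold lower [343.0 to 522.0], a log2 fold change of -8.27. This was the lowest of the 14997 genes compared on the log2(value + 1) scale and the 3rd lowest by plain ratio. Genes without a row could not be ranked. Divided by transcript length, *Havcr1* ranked 42 in WT+AKI and 12011 in TG+AKI.

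The nearest relative of *Havcr1*, *Timd2*, is a neighbouring gene of the same receptor family and shared 0.829% of the 100-base words of the *Havcr1* transcript. *Timd2* was 100.7 and 79.8, in the same order of libraries, a log2 fold change of -0.33, so the family did not move as 1 block in these libraries. *Havcr2*, which encodes TIM-3 of T cells and myeloid cells, was 1.16 and 0.815. Of 5 genes of KIM-1 shedding or of the related clearance receptors, 1 was at least 2-fold lower: *Axl*, a receptor tyrosine kinase, at 94.5 and 35.3 (log2 fold change -1.4). Its ligand *Gas6* (422.4 and 409.8), the sister receptor *Mertk* (59.1 and 59.8) and the shedding proteases *Adam10* (111.1 and 86.9) and *Adam17* (41.9 and 37.2) were all under 2-fold.

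*Lcn2* encodes NGAL, a secreted lipocalin that binds bacterial siderophores and withholds iron from microbes. It spans 32384633-32388252 of chromosome 2, minus strand, in a longest transcript of 5 exons. WT+AKI gave a value of 249.8 (10589 reads) against 1.87 (62 reads) for TG+AKI, which is 133.4-fold lower [104.0 to 174.1] and a log2 fold change of -6.45. It ranked 3 from the bottom of all genes compared, and 15 by plain ratio. The uptake receptors went the other way: *Lrp2* (megalin) was 644.3 and 2754 (log2 fold change 2.09), *Cubn* (cubilin) 287.3 and 740.1 (1.36), and *Slc22a17*, the NGAL receptor, 12.4 and 25.1 (0.96, just under 2-fold).

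Neutrophils also carry NGAL in their granules. Of 13 neutrophil markers, 5 had a row, and their summed value was 8.44 (358 reads) against 2.29 (76 reads) for TG+AKI. The largest were *Csf3r*, the granulocyte colony-stimulating factor receptor (3.28 and 0.634), and *S100a9*, a calprotectin subunit (3.14 and 0.393). The granule genes *Mpo*, *Elane*, *Ngp* and *Camp* had no row. Of the 5, 4 were lower in TG+AKI, like *Lcn2*, and *Ltf*, the granule gene of lactoferrin, was 0.189 and 0.725. Their sum lay far below *Lcn2* in WT+AKI and near its value of 1.87 in TG+AKI, and their part in the result was not tested. The Regnases are RNases, and the study examined Regnase-2 as a regulator of *Lcn2* mRNA. It reported markedly more Regnase-2 in *Inmt* Tg than in wild-type kidneys after voclosporin, in groups not named as I/R. By real-time PCR of wild-type kidneys, the study also reported Regnase-2 mRNA raised by high-dose voclosporin and reduced by I/R. The protein was stained after I/R, including in *Inmt* Tg mice given voclosporin and a control virus. Those assays and groups differ from the 2 libraries here. The Regnase-2 gene *Zc3h12b* was 1.49 (63 reads) against 1.75 (58 reads) for TG+AKI, a log2 fold change of 0.15. The ratio of TG+AKI to WT+AKI was 1.18 [0.81 to 1.71], an interval that includes equal values. *Zc3h12a* (Regnase-1) was 8.30 and 2.69, a log2 fold change of -1.33, and *Zc3h12c* and *Zc3h12d* were under 2-fold (0.80 and -0.45).

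*Clu* encodes clusterin, a secreted chaperone that binds misfolded proteins and rises in damaged tubules. The gene lies on chromosome 14 at 65968483-65981547, plus strand, and its longest transcript has 9 exons. WT+AKI gave 884.7 (37508 reads) against 114.4 (3790 reads) for TG+AKI, 7.73-fold lower [7.48 to 8.0], with a log2 fold change of -2.94. Unlike *Havcr1* and *Lcn2*, it remained a well-expressed transcript in TG+AKI. Its lipoprotein receptors differed among themselves: *Lrp2* was higher (2.09), *Lrp8* was lower at 7.88 and 0.634 (-2.44), and *Vldlr* was 77.1 and 122.2 (0.66, under 2-fold).

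*Spp1* encodes osteopontin, an acidic matrix protein that binds integrins and CD44 and attracts macrophages. It is on chromosome 5 at 104435118-104441050, plus strand, with 6 exons in the longest transcript. The gene model *Gm42793* overlaps it on the same strand and shares 5.82% of its 100-base words, so some reads may have been lost or divided. WT+AKI had 10183 (431705 reads) against 670.5 (22206 reads) for TG+AKI, 15.2-fold lower [15 to 15.4], with a log2 fold change of -3.92. *Spp1* alone took 1.12% of all reads in WT+AKI and 0.0610% in TG+AKI. It made up 80.1% of the reads of the 8 genes in WT+AKI and 72.8% in TG+AKI. The 8 genes together took 1.4% and 0.0837% of reads, and without *Spp1* 0.279% and 0.0227%.

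*Cd44* encodes the hyaluronan receptor that osteopontin also binds, and is known to appear on injured tubule cells, on leukocytes and on stromal cells. The gene lies on chromosome 2 at 102811141-102901665, minus strand, with 19 exons in its longest transcript and a small nuclear RNA gene (*Gm23731*) on the opposite strand. WT+AKI had 36.9 (1566 reads) against 1.45 (48 reads) for TG+AKI, 25.5-fold lower [19.1 to 34.7], with a log2 fold change of -3.95. On the log2(value + 1) scale *Cd44* and *Spp1* lay close together, at ranks 26 and 29 from the bottom. Their plain ratios had intervals that do not overlap.

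Integrins, hyaluronan enzymes and other partners of osteopontin and CD44 differed less. Of 18 that passed the filter, 6 were at least 2-fold lower, none was at least 2-fold higher, and the median log2 fold change was -0.76. The 5 with the largest differences were *Mmp3*, a metalloproteinase (2.95 and 0.362, log2 fold change -1.54), *Itgb3*, the beta chain of the vitronectin receptor (7.34 and 2.02, -1.46), *Msn*, the actin linker moesin (438.3 and 170.4, -1.36), *Thbs1*, the matrix protein thrombospondin 1 (143.9 and 58.6, -1.28), and *Has1*, a hyaluronan synthase (3.94 and 1.21, -1.16).

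*Vcam1* encodes an adhesion molecule of activated endothelium that also marks tubule cells that fail to repair. It lies on chromosome 3 at 116109949-116129688, minus strand. The antisense model *Gm43109* overlaps it, and since the strand setting of the counting is not given in the sources used here, reads of the 2 genes may not be separated. WT+AKI had 55.6 (2356 reads) against 12.4 (411 reads) for TG+AKI, 4.48-fold lower [4.03 to 4.98], with a log2 fold change of -2.08. *Icam1*, its relative on endothelium and tubule, was 90.4 and 16 (log2 fold change -2.43), whereas *Icam2*, made steadily by endothelium, was 7.43 and 7.67 (0.04). The integrin chains that bind VCAM-1 on leukocytes were all under 2-fold, with *Itga4* at 3.54 and 3.68, *Itgb1* at 556.8 and 301.8, *Itga9* at 32.5 and 20.5, and *Itgb7* at 0.896 and 1.18.

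*Cst3* differed least of the 8. The gene is on chromosome 2 at 148871722-148875692, minus strand, in 3 exons. Cystatin C inhibits the cysteine cathepsins, and its level in blood is used to estimate filtration. WT+AKI had 135.8 (5759 reads) against 116.4 (3856 reads) for TG+AKI, 1.17-fold lower [1.12 to 1.22], a log2 fold change of -0.22. The interval did not reach equal values, but the difference is within the range of the 15 housekeeping genes. Those genes ran from -0.78 (*Hprt*) to 0.81 (*Sdha*) with a median of -0.15 and none at 2-fold. Of 10 proteases that cystatins can act on or that share their lysosome, *Ctss* (28.9 and 10.4, -1.39), *Ctsc* (42.2 and 15.6, -1.38) and *Ctsd* (1426 and 624.4, -1.19) were at least 2-fold lower. *Cstb*, which encodes the intracellular inhibitor cystatin B, was 179.9 and 47.6 (log2 fold change -1.90), so the secreted and the intracellular cystatin gave different values.

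*Fabp1* was barely present. The gene lies on chromosome 6 at 71199827-71205023, plus strand, in 4 exons, and encodes the liver-type carrier of fatty acids. WT+AKI gave 2.15 (91 reads) against 0.815 (27 reads) for TG+AKI. The ratio of the values was 2.63-fold lower [1.70 to 4.21], while the log2(value + 1) difference, which understates low genes, was -0.79 and so under 2-fold. With a pseudocount of 0.1 the difference was -1.30 and *Fabp1* became the 7th of the 8 genes at least 2-fold lower. With that pseudocount 10.5% of all genes compared were at least 2-fold lower. *Fabp1* passed the filter through WT+AKI only, the library where it was higher. Its relatives *Fabp3*, the heart-type carrier (39.4 and 65.1, 0.71), and *Fabp4*, the adipocyte-type carrier (49.3 and 36.9, -0.41), were more abundant. Of 10 partners, such as fatty acid importers, oxidation enzymes and the receptors that carriers supply, 2 were at least 2-fold higher: *Hnf4a*, a regulator of proximal tubule identity (396.6 and 1072, 1.43), and *Slc27a2*, a fatty acid transporter (2207 and 4422, 1.0).

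Compared per kilobase of longest annotated transcript, the order in WT+AKI was *Spp1* (6757 per kb), *Havcr1* (575.8), *Clu* (488.8), *Lcn2* (181.8), *Cst3* (158.0), *Vcam1* (13.6), *Cd44* (6.58) and *Fabp1* (3.88). No 2 neighbours in that order had overlapping Poisson intervals. In TG+AKI the order was *Spp1* (445.0), *Cst3* (135.4), *Clu* (63.2), *Vcam1* (3.04), *Fabp1* (1.47), *Havcr1* (1.37), *Lcn2* (1.36) and *Cd44* (0.258). There *Fabp1* [0.972 to 2.15], *Havcr1* [1.1 to 1.68] and *Lcn2* [1.04 to 1.75] could not be ordered within counting error. With the longest protein-coding transcript, *Lcn2* rose to 273.0 and 2.05 per kb and *Vcam1*, whose longest annotated transcript is a 1-exon model of 4088 bases, to 16 and 3.58. *Havcr1* was thus the second most abundant of the 8 genes in WT+AKI and near the bottom in TG+AKI, whereas *Cst3* went from the fifth to the second place with little difference of its own.

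**Figure D2:**
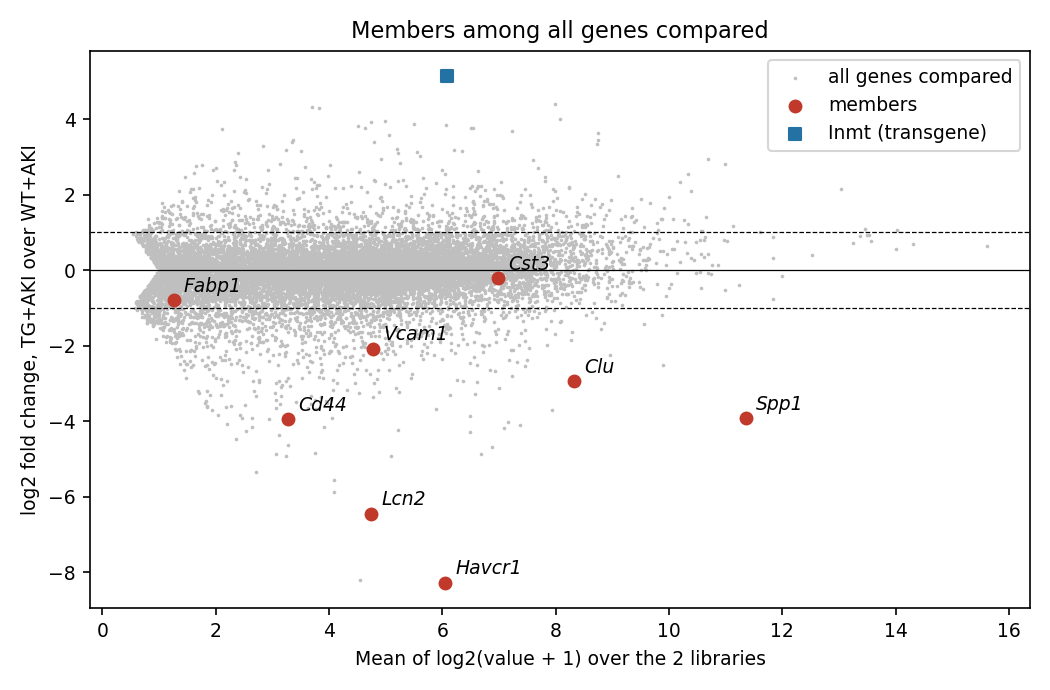
Log2 fold change of TG+AKI over WT+AKI, on the log2(value + 1) scale, against the mean log2(value + 1) of the 2 libraries, for 14997 genes (grey), the 8 marker genes (red) and *Inmt* (blue square). Dashed lines mark 2-fold. *Havcr1* (-8.27) and *Lcn2* (-6.45) lie below nearly all genes, *Spp1* stands apart at high level (-3.92), and *Cst3* (-0.22) and *Fabp1* (-0.79) lie within the lines.

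The 2 genes nearest to each marker in log2 fold change were taken from the 2179 genes that reached 100 in either library, a likeness over 2 libraries only. For *Havcr1* they were *Krt20*, a keratin of simple epithelium (-8.20), and *Lcn2* (-6.45). *Lcn2* had *Sprr1a* (-5.86) near it. *Gc*, the vitamin D binding protein gene (-4.03), was near both *Spp1* and *Cd44*, with *Mt2*, a metallothionein gene (-3.87), beside *Spp1* and *Spp1* itself beside *Cd44*. *Clu* had *Myof* (-2.94) and *Btg2* (-2.97) nearest, and *Vcam1* had *Ahnak* (-2.05) and *Cryab* (-2.10). *Cst3* had *Gnb2* (-0.22), and *Fabp1* had *Lrrc59* and *Sept2* (both -0.79).

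Other genes of tubular injury and repair were mostly lower too. Of 36 that passed the filter, 32 were at least 2-fold lower in TG+AKI, none was at least 2-fold higher, 4 were under 2-fold, and the median log2 fold change was -2.66. *Krt20* was 399.2 (16926 reads) against 0.362 (12 reads) for TG+AKI. *Sprr1a*, a cornified envelope gene, was 129.4 and 1.24, a log2 fold change of -5.86. *S100a6*, a calcium binding protein gene, was 186.3 and 5.22 (-4.91), the complement gene *C3* 556.0 and 18.1 (-4.86), and the fibrinogen gene *Fgg* 592.2 and 22.2 (-4.68). *Akap12*, a kinase scaffold, and *Tnfrsf12a*, the TWEAK receptor, had log2 fold changes of -4.28 and -4.23.

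Other kidney markers were not mostly lower. Of 25 other genes whose products are measured in urine or used as tubule markers, 6 were at least 2-fold higher, 1 was at least 2-fold lower and 18 were under 2-fold, with a median log2 fold change of 0.32. The 6 were *Egf*, the tubular growth factor named by the study (54.3 and 1160, 4.39), *Alb* (0.802 and 8.27, 2.36), the brush border enzyme gene *Ggt1* (362.1 and 980.2, 1.43), *Cubn* (1.36), the water channel gene *Aqp1* (431.1 and 1040, 1.27) and *Vegfa* (128.6 and 286.0, 1.15). The 1 was *Agt*, which encodes angiotensinogen (196.6 and 85.8, -1.19). *Alpl*, alkaline phosphatase, was 0.97, just under 2-fold.

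**Figure D3:**
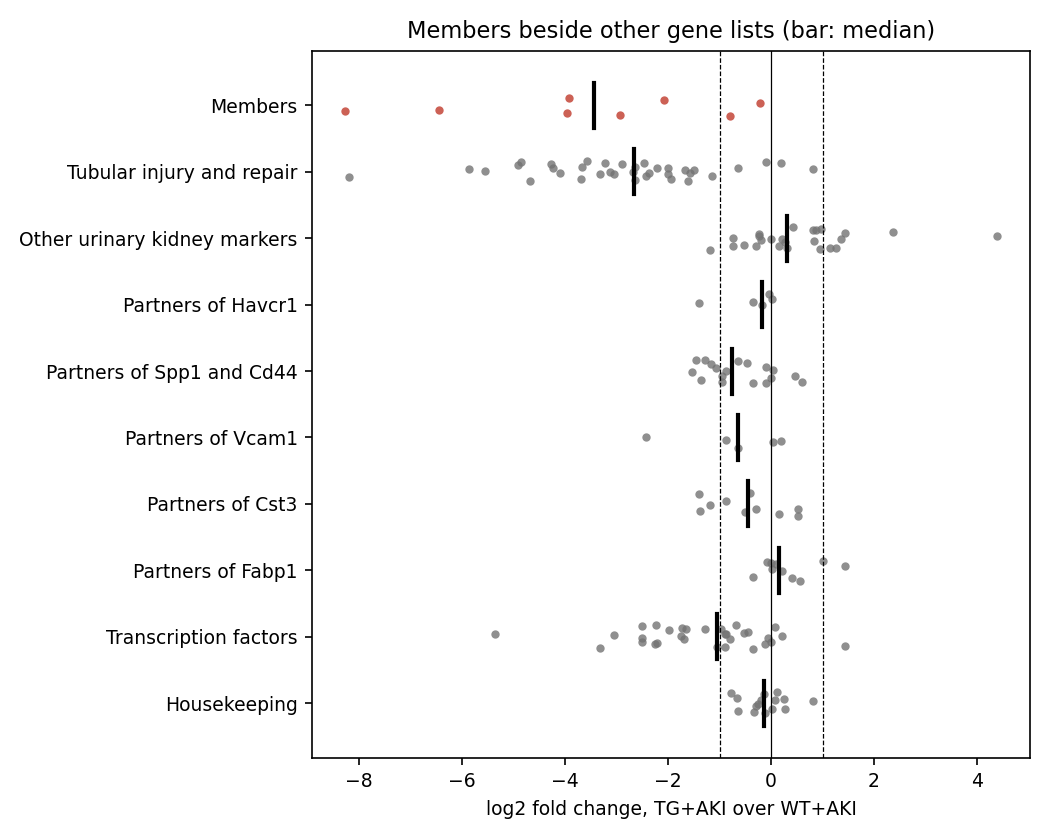
Log2 fold change (TG+AKI over WT+AKI, log2(value + 1) scale) of each gene that passed the filter in 10 gene lists, with 1 dot per gene, a black bar at the list's median and dashed lines at 2-fold. The members (median -3.43) and the tubular injury genes (-2.66) lie left of 0, the housekeeping genes (-0.15) around it and the other urinary markers (0.32) slightly right of it.

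Transcription factors that are known to act on injury genes were lower as well in part. Of 31, 16 were at least 2-fold lower, 1 was at least 2-fold higher (*Hnf4a*), and the median was -1.04. *Fosl1*, an AP-1 subunit, had 1745 reads in WT+AKI and 1 read in TG+AKI, a ratio of 1363 [244.3 to 53868]. *Atf3*, a stress-induced factor, was 27.2 and 1.81 (-3.33), and *Sox9*, a factor of repairing tubule cells, was 11.6 and 0.513 (-3.05). The AP-1 subunit gene *Fosl2* and the factor gene *Klf6* both had a log2 fold change of -2.51.

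Cell type markers moved alongside. All 16 proximal tubule markers were at least 2-fold higher in TG+AKI, their summed value being 10632 in WT+AKI and 47287 in TG+AKI, with a median log2 fold change of 2.27. Examples were *Gatm*, of creatine synthesis (66.3 and 1075, 4.0), and *Slc7a13*, a transporter gene that the study named (40.7 and 533.7, 3.68). Of 8 thick ascending limb markers, 5 were at least 2-fold higher (summed value 2070 and 4583), and of 12 distal tubule and collecting duct markers, 3 (610.4 and 1270). The 7 podocyte markers (466.1 and 493.1) and the 9 endothelial markers (691.7 and 648.5) were all under 2-fold, while *Vcam1*, which endothelium can make, was 4.48-fold lower.

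Macrophages can make *Spp1*, *Cd44* and *Lcn2*. Of 12 macrophage markers, 7 were at least 2-fold lower, the summed value being 226.3 in WT+AKI and 92.5 in TG+AKI. *Cd68*, a lysosomal protein gene (37.1 and 1.39, -3.99), and *Itgam*, an integrin of myeloid cells (19.9 and 1.06, -3.35), were the lowest, while *Csf1r*, the receptor that macrophages need to survive, was 37.5 and 43.0. Of 9 fibroblast and mural markers, 3 were at least 2-fold lower (698.2 and 381.3), led by the collagen genes *Col1a1* (-2.01) and *Col3a1* (-1.91). Markers of T and NK cells (3.23 and 3.35), B cells (4.91 and 6.22) and erythroid cells (2.69 and 5.47) were near 0 in both libraries. The part of any of these cell types in the values of the 8 genes was not tested.

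**Figure D4:**
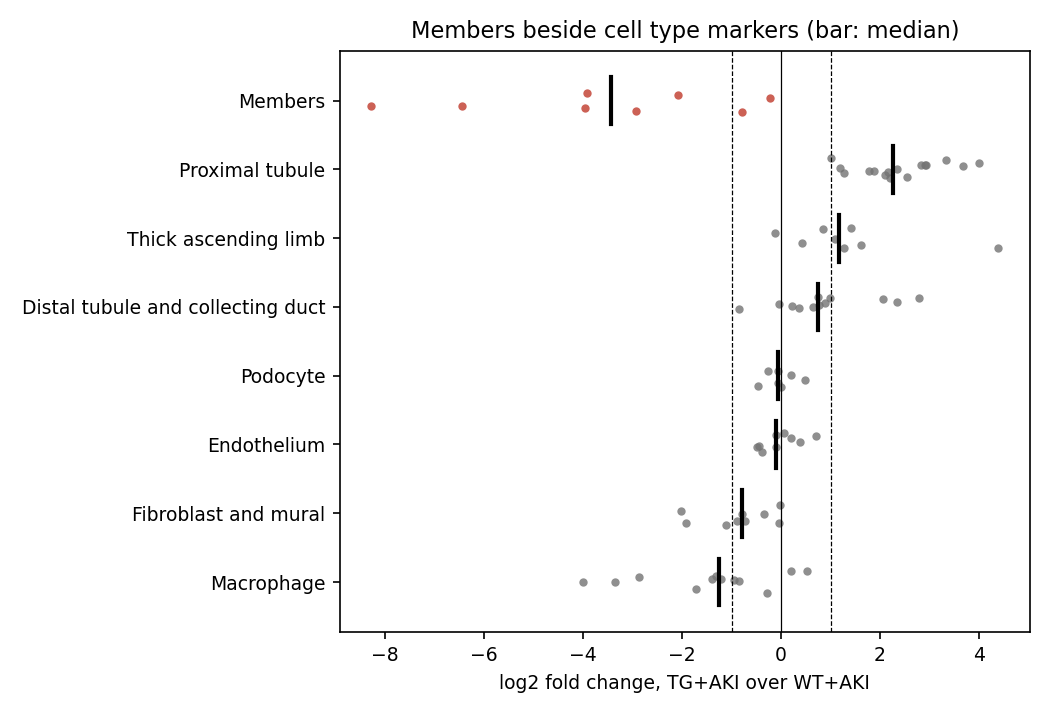
Log2 fold change (TG+AKI over WT+AKI, log2(value + 1) scale) of the 8 genes and of the markers of 7 cell types, with 1 dot per gene, a black bar at each median and dashed lines at 2-fold. Every proximal tubule marker lies at or right of 2-fold (median 2.27), podocyte (-0.05) and endothelial markers (-0.10) lie around 0, and macrophage markers (-1.26) lie mostly to the left.

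Rescaling the libraries shifts all genes in the same direction, the 8 genes included, and low genes by less on the log2(value + 1) scale. Of all genes at least 2-fold different, 40.5% were higher in TG+AKI. With equal column totals the median log2 fold change of all genes shifted by -0.26 and that share was 22.3%, and with a median ratio of 1 over well-expressed genes it shifted by -0.13 and the share was 30.3%. Under each of these scalings 6 of the 8 were at least 2-fold lower, and the nearest of them to the threshold of -1 was *Vcam1* (-2.08 as reported). Over the 7 pseudocounts and scalings that keep the filter, *Havcr1* ran from -8.67 to -6.53 and ranked 1 or 2 from the bottom, and *Lcn2* ran from -6.99 to -4.45 and ranked 3 or 4. Among the 7, scaling by the trimmed mean of M values (TMM) returned the reported values, so it is not a separate check. *Cst3* ran from -0.49 to -0.20.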

How the data were processed

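Whole-kidney mRNA (TruSeq Stranded mRNA kit) of 1 WT+AKI and 1 TG+AKI library was sequenced. Per the labels, the submitters' processing notes name STAR 2.7.3a, HTSeq, DESeq2, edgeR, Cufflinks 2.2.1 and FastQC on mm10. The strand setting and annotation are not given in the sources used here. The authors deposited 1 normalized signal value per gene and library, whose column sums were 909104 and 1099980. All values were whole multiples of the column's smallest (100% within 0.01), so reads were recovered by division. The filter value of 1 equals 42.4 reads (WT+AKI) or 33.1 (TG+AKI).

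The 14997 genes that reached 1 in either library were compared as the difference of log2(value + 1), TG+AKI minus WT+AKI, and 2-fold was the threshold. With 1 library per group no count model could be fitted, and no p-value is given. The 8 genes and all lists were chosen with earlier results of these data known. Named genes were the markers, *Inmt*, *Zc3h12b*, up to 5 (injury and urinary lists, 8) largest differences per list, and the 2 genes nearest to each marker, of which 2 genes are not reported here. Other list genes are named to describe a role or a count and were chosen after their values were seen. Lengths came from GENCODE M21 (GRCm38, the same assembly as mm10). They were found for 89.7% of genes. The procedures were tested on simulated data. Alternatives were pseudocounts of 0.1 and 10, 4 scalings, no filter, and filters of 10 and 50. Of the scalings, TMM returned the deposited values. Software was Python 3.11.15, pandas 2.3.3, scipy 1.17.1, matplotlib 3.10.9, numpy 2.4.6.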

Additional observations from a re-analysis of the deposited data

How the results depend on the processing

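No alternative reversed the direction of any of the 8 genes (48 values over pseudocounts and scalings). Most of the 48 could not have done so. A pseudocount cannot change the sign of a difference, and the TMM values equal the reported ones. Equal column totals and a median ratio of 1 moved values further down. Scaling by size factors of the DESeq2 kind shifted the median of all genes by only 0.016. The median log2 fold change of the 8 genes was -2.44 with a pseudocount of 10, -3.69 with equal column totals, -3.57 with a median ratio of 1 and -3.92 with a filter of 10, which leaves 7 genes. A filter of 50 leaves 6, of which 5 were at least 2-fold lower, against 6.75% of all genes compared. *Inmt* was 4.34 with a pseudocount of 10 and 4.88 with equal column totals. Genes at least 2-fold lower numbered 1150 as reported, 1578 with a pseudocount of 0.1, 1708 with equal column totals, 408 with a pseudocount of 10, 733 with a filter of 10 and 295 with a filter of 50. Genes at least 2-fold higher numbered 784 as reported, 1053 (pseudocount of 0.1), 491 (equal column totals), 372 (pseudocount of 10), 591 (filter of 10) and 374 (filter of 50). With the filter of 50, 55.9% of the differing genes were higher. Of 25 list medians, 3 changed sign: *Fabp1* partners to -0.055 (equal column totals), *Lcn2* relatives to -0.031 (no filter) and podocyte markers to 0.19 (filter of 50). Filters change by construction which genes are compared. A larger pseudocount shrinks every log2 difference and a smaller one widens it. Rescaling shifts all genes in the same direction. No paired analysis was possible because each group has 1 library, and for the same reason no library could be left out.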

Other observations

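The partners of *Tff3* and *Chil1*, the markers without a row, could still be read. Of 5 genes linked to trefoil factor 3, *Muc1*, an epithelial mucin gene, was at least 2-fold lower in TG+AKI (37.0 in WT+AKI and 12.2 in TG+AKI, log2 fold change -1.52), and the other 4 were under 2-fold, among them the candidate receptor genes *Cxcr4* (4.74 and 3.08) and *Ackr3* (42.2 and 67.5). Of 4 genes linked to the chitinase-like protein of *Chil1*, *Lgals3*, which encodes galectin-3, was 208.8 and 27.1 (-2.90) and *Sdc1*, a heparan sulfate proteoglycan gene, was 50.5 and 14.3 (-1.76). The related *Chil3*, a product of mouse macrophages, had 151 reads in WT+AKI and 13 in TG+AKI.

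The relatives of the lower markers did not form a single direction. Among lipocalins, the apolipoprotein gene *Apom* was 20.4 and 63.2 (1.58) and the complement gene *C8g* 4.51 and 10.1 (1.01), both higher in TG+AKI, opposite to *Lcn2*. Among cystatins, *Fetub* was 3.99 and 0.876 (-1.41) and *Cst6* had 76 reads in WT+AKI and 2 in TG+AKI, 29.7-fold lower with a 95% exact interval of 7.94 to 249.5 for counting error. The fatty acid carrier *Fabp7*, known from brain, was 3.18 and 12.5 (1.69), opposite to *Fabp1*.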
